A study of Mus musculus with 12 samples.

Results

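The genes described here encode calcium channels, the channels and pumps of the intracellular calcium stores, and the pumps that remove calcium from the cytosol. They were chosen by symbol alone: every gene of the array's annotation whose symbol begins with Cacna, Cacnb, Cacng, Ryr, Itpr, Atp2a, Atp2b, Atp2c, Trpc, Trpm, Trpv, Stim or Orai in the usual form of these families. That rule found 64 genes, read by 67 probe sets, of 19938 genes named by a probe set of 1 symbol. Of the 64 genes, 50 lay above the filter on dim signal (log2 intensity 7.31) and were tested among 14944 genes, and the other 14 were not tested (Cacna1f, Cacng3, Ryr3, Itpr3os, Trpc4, Trpc5, Trpc5os, Trpc6, Trpc7, Trpm1, Trpm5, Trpm6, Trpm8 and Trpv1). Trpm1, at a mean of 7.26, lay just under the filter and Atp2c2, at 7.34, just above it. Trpc4ap, Itpr3os and Trpc5os match the pattern by name and are not channels.

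RNA came from the ascending aorta of mice aged 6 weeks and was hybridised to 12 whole-transcript arrays, in 4 groups of 3. All 4 groups carried floxed Tgfbr2, the type II TGF-beta receptor, and Myh11-CreERT2, a Cre driven in smooth muscle cells that acts after tamoxifen. The wild-type control and wild-type knockout groups (Myh11-CreERT2.Tgfbr2f/f) had normal Fbn1, the gene of fibrillin-1, and the mutant control and mutant knockout groups also carried Fbn1C1039G/+, a heterozygous allele used to model Marfan syndrome. Knockout mice received 1 mg tamoxifen on 5 days from 4 weeks of age and control mice received corn oil, so every knockout comparison also compares tamoxifen with corn oil. Whether a group's arrays stand for separate animals is not stated, and p-values then measure only the spread between these samples, which may be technical.

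In a smooth muscle cell calcium enters through voltage-gated channels (a Cacna1 pore with alpha2delta, beta and, in some channels, gamma subunits), through TRP cation channels and through Orai channels. Calcium is also released from the sarcoplasmic reticulum by ryanodine receptors and by IP3 receptors. SERCA pumps refill that store, plasma membrane pumps extrude calcium, and Stim proteins sense a depleted store and open Orai channels. Calcium bound to calmodulin activates myosin light chain kinase, which starts contraction of the vessel wall.

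Levels are log2 of the deposited intensity and are compared only within a probe set. Differences are log2 differences with their standard error from limma. A comparison of a pair of groups sets the mean of 3 arrays against that of 3. The mean of both genotypes and the difference of the knockout effects use the means of all 4 groups. In every comparison the spread is estimated from all 12 arrays, so leaving out an array of another group can also change a call. A gene is called when its Benjamini-Hochberg adjusted p over the 14944 genes is under 0.05. Median intensity per array lay between 301 and 334, the highest in mutant knockout 3. The brown fat gene Ucp1 stood at 8.58 in mutant control 3 and 8.21 in mutant knockout 1 and between 6.75 and 7.30 in the other arrays, and results that change without that pair of arrays are given with their values. Tgfbr2 itself differed by -0.08 ± 0.05 between wild-type knockout and control (adjusted p = 0.324) and by 0.04 ± 0.05 in the mutant (adjusted p = 0.594), and neither passed the test. The sources used here do not give which part of the gene is floxed or where the probes lie in it, so its level does not check the labels. "Knockout" below is the label.

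Of the 50 genes tested, 6 were called in the same direction in both Fbn1 genotypes when knockout was compared with control. Of all 14944 genes 914 were. Among the 6, Cacna2d1 and Cacng4 kept both calls under every alternative run. Ryr2, the ryanodine receptor of heart and smooth muscle, and Cacna2d1, the alpha2delta subunit that helps carry voltage-gated channels to the membrane, were lower. Atp2a3 (SERCA3, a store pump), Stim2 (a store sensor), Cacng4 (a gamma subunit family protein) and Trpv5 (an epithelial calcium channel) were higher. The upstream sequence of 5 of them is printed because each was called in both knockout comparisons, although not all in the same direction. They were picked after their values were seen, and Cacng4 is named only. Each line holds the 250 bases before the RefSeq start site of the gene on its own strand, in build GRCm38.p6, at chr13:12106946-12107195 (minus strand), chr5:15934441-15934690 (plus), chr11:72960919-72961168 (plus), chr5:53998273-53998522 (plus) and chr6:41680724-41680973 (minus). Capitals mark CAGAC, a short element bound by SMAD proteins, or GTCTG, its reverse complement.
Ryr2: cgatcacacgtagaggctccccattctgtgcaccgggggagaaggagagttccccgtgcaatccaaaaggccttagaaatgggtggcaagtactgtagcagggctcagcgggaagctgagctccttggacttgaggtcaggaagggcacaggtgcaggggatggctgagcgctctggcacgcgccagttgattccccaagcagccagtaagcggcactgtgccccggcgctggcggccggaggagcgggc
Cacna2d1: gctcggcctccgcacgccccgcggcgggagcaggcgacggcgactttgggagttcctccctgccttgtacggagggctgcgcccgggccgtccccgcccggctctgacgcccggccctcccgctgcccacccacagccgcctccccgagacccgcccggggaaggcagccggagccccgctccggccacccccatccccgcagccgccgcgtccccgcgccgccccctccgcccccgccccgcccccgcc
Atp2a3: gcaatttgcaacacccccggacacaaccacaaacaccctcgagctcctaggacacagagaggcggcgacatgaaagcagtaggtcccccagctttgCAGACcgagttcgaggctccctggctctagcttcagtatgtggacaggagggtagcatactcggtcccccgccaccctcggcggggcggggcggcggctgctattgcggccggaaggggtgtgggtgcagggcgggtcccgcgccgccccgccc
Stim2: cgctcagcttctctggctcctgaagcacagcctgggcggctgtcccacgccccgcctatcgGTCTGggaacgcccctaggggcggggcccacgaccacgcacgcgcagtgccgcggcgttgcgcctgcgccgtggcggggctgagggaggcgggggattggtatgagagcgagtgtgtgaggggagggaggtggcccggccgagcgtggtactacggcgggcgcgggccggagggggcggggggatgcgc
Trpv5: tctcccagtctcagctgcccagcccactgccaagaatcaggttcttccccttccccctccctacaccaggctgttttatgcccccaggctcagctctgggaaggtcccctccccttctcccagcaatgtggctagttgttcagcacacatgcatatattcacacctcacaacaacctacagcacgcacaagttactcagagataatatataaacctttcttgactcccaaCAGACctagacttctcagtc
The Atp2a3 and Trpv5 stretches hold CAGAC, beginning 154 and 20 bases before the start, the Stim2 stretch holds GTCTG, and the Ryr2 and Cacna2d1 stretches hold neither. None of the 5 holds a CArG box, the sequence read by serum response factor. In windows that also take in 50 bases after the start, searched on both strands, CAGAC stood in 4 of the 8 genes with a window that were lower in the knockout as the mean of both genotypes and in 4 of the 6 that were higher. Of all 27025 genes with a RefSeq window of that length 53.2% held it. A CArG box stood in 0 of the 8 and 0 of the 6, and in 1.81% of those genes. Of the 64 genes, 53 had a window. A match describes these letters and is not a site.

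**Figure D1:**
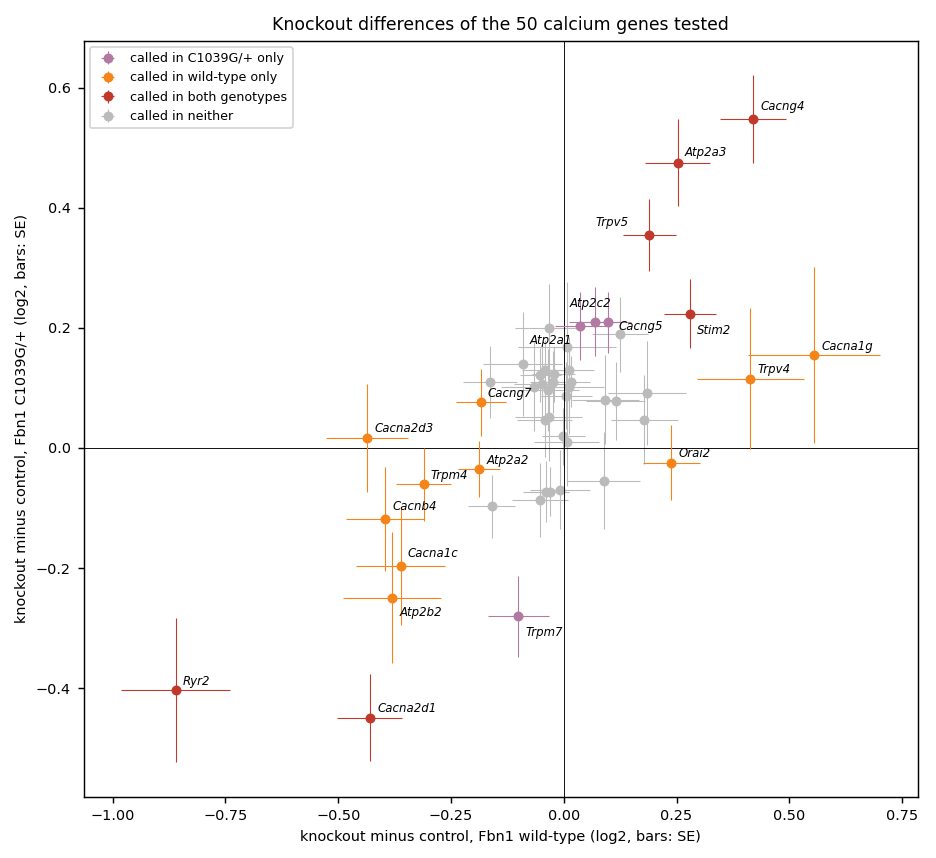
Knockout minus control as a log2 difference in Fbn1 wild-type aorta (horizontal axis) and in Fbn1C1039G/+ aorta (vertical axis) for the 50 calcium genes tested, with bars of 1 SE, coloured by the genotype in which each was called. Ryr2 and Cacna2d1 lie low in both genotypes, Cacng4, Atp2a3, Trpv5 and Stim2 high in both, and Cacna2d3 lies at -0.44 in the wild-type and 0.02 in the mutant.

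In the wild-type, knockout against control called 16 of the 50 genes, 7 higher and 9 lower. Among all genes tested 18.8% were called, 9.17% higher and 9.66% lower, so these 16 are 32% of the set. In the mutant 10 were called, 7 higher and 3 lower, where the share of all genes was 13.4%, with 7.66% higher and 5.77% lower. As the mean of both genotypes 20 were called, 10 in each direction, against 28.9% of all genes, 15% higher and 13.9% lower. The median difference of the 50 genes was -0.02 in the wild-type and 0.09 in the mutant, and of all genes tested -0.01 and 0.03. The 6 genes called in both genotypes are 37.5% of the wild-type calls and 60% of the mutant calls, all with the same sign. Over all genes 929 were called in both, 33.0% of the wild-type and 46.3% of the mutant calls, 914 of them with the same sign. The counts rest on single arrays: without wild-type control 1 or knockout 3 the wild-type count was 9 or 7, and without mutant control 1 or 2 or mutant knockout 1 or 2 the mutant count was 5, 4, 5 and 4 in that order. Without both arrays of high Ucp1 the mutant count was 4.

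Of the 7 rises in the mutant 5 were dim genes, and of the 1145 rises over all genes 729 were, so the set lay near the whole array in this. Of the 32 genes below the median level of tested genes (9.58), 28 lay above zero in the mutant knockout with a median of 0.11, and 5191 of 7472 such genes on the whole array did, with a median of 0.07. The 18 brighter genes had a median of -0.06 and 3 of their 5 calls were lower, as were 655 of the calls of all brighter genes against 416 higher. The array of highest median intensity, mutant knockout 3, belongs to that comparison, and its part in the shift of dim genes was not tested.

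Among the calcium release channels, Ryr2 read 10.14, 10.13 and 10.10 in the wild-type control arrays and 9.27, 9.44 and 9.07 in the wild-type knockout arrays. Every knockout array was below every control array. The difference was -0.86 ± 0.12, a change of -44.9% (adjusted p = 0.000384), and was called under every alternative run. In the mutant Ryr2 read 10.21, 9.85 and 9.96 in controls and 9.62, 9.37 and 9.82 in knockouts, again without overlap, though mutant knockout 3 lay only just under mutant control 2. That difference was -0.40 ± 0.12 (adjusted p = 0.0435). It lost its call without wild-type control array 1, 2, wild-type knockout array 1, mutant control array 1, 2, 3, mutant knockout array 1 or 2 (adjusted p between 0.0518 and 0.152), or without both arrays of high Ucp1 (adjusted p = 0.106) or with only the groups compared in the fit (adjusted p = 0.0835). The 2 knockout effects differed by 0.46 ± 0.17 (adjusted p = 0.204), which did not pass the test. Ryr1, the skeletal muscle form, was called in no comparison, and Ryr3 lay under the filter.

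Of the IP3 receptors, Itpr2 and Itpr3 were tested and neither was called in any comparison. Itpr2 differed by 0.09 ± 0.08 in the wild-type and -0.05 ± 0.08 in the mutant knockout, and Itpr3 by -0.01 ± 0.07 and -0.07 ± 0.07.

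Ryr2 is also a heart gene, so cardiac markers are given beside it. Of 22 cardiac muscle markers tested, 3 were higher and 1 lower in the wild-type knockout, and 5 higher and 0 lower in the mutant knockout. The summed intensity of all 24 cardiac markers on the array lay between 16844 and 19008 in wild-type control and between 22762 and 24378 in wild-type knockout arrays. In the mutant it lay between 15506 and 20000 in control and between 23579 and 26498 in knockout arrays. Smooth muscle markers, 17 of them, gave 2 higher and 5 lower in the wild-type and 3 and 3 in the mutant, with sums between 207663 and 216477 in all 12 arrays. Their mean log2 level was 13.40 or above in every group, as the tissue label has it. Fewer cells of a type and less RNA per cell cannot be told apart in whole tissue.

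Markers of other cells are given beside the results above, to be read against the 18.8% of all genes called in the wild-type and 13.4% in the mutant. All 18 macrophage markers tested were higher in the wild-type knockout, with a median of 0.99, and 10 of 18 in the mutant, with a median of 0.36. The summed intensity of all 19 macrophage markers on the array lay between 16609 and 19598 in control and between 33371 and 37531 in knockout arrays of the wild-type. In the mutant it lay between 18006 and 23348 and then between 27116 and 27347. Endothelial markers were higher in 6 and lower in 1 of 16 in the wild-type, and in 7 and 1 in the mutant. Cell division genes were higher in 17 of 17 in the wild-type knockout and in 2 of 17 in the mutant. Among the remaining lists, fibroblast markers gave 6 higher and 0 lower of 13 in the wild-type and 2 and 4 in the mutant, and fat markers 3 and then 5 higher of 13 with 0 lower. Skeletal muscle markers gave 1 in each direction of 12 and then 5 higher and 1 lower, the lower one being Casq1, nerve and Schwann markers 3 higher and 1 lower of 11 and then 0 and 1, and lymphocyte markers 0 and then 1 higher of 4. Immediate early genes were higher in 2 and then 5 of 19. In the wild-type the cardiac, skeletal, lymphocyte and immediate early lists lay under the share of all genes, and in the mutant the nerve and Schwann list and the cell division genes did. The part of these cells in the calcium genes was not tested.

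Of the voltage-gated channels' pore subunits, 9 were tested. Cacna1c, the L-type pore that carries most calcium entry of arterial muscle, read 11.21, 11.03 and 11.06 in wild-type control and 10.69, 10.82 and 10.71 in wild-type knockout arrays. The groups did not overlap, and the difference was -0.36 ± 0.10 (adjusted p = 0.0225). The call was lost without wild-type control array 1, wild-type knockout array 1 or 3 (adjusted p = 0.0807, 0.0775 and 0.0717, in that order). In the mutant the controls spread from 11.02 to 11.50 and the knockouts lay between 11.02 and 11.04, so the groups overlapped (-0.20 ± 0.10, adjusted p = 0.191). As the mean of both genotypes Cacna1c was lower by -0.28, and that call was kept under every alternative in which it was tested.

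T-type pores gave a different picture. Cacna1g read 8.84, 8.44 and 9.13 in wild-type control and 9.21, 9.36 and 9.50 in wild-type knockout arrays, higher in every knockout array by 0.55 ± 0.15 (adjusted p = 0.019). It was not called without wild-type control array 2 or wild-type knockout array 3 (adjusted p = 0.065 and 0.0797, in that order). The mutant difference, 0.15 ± 0.15, did not pass (adjusted p = 0.487).

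Cacna1h, another T-type pore, followed the Fbn1 genotype. It read 8.20, 8.36 and 8.31 in wild-type control, 8.61, 8.65 and 8.74 in mutant control, 8.43, 8.36 and 8.45 in wild-type knockout and 8.96, 8.83 and 8.78 in mutant knockout arrays. All mutant arrays lay above all wild-type arrays of the same treatment. The mutant was higher by 0.38 ± 0.06 among controls (adjusted p = 0.00482) and by 0.44 ± 0.06 among knockouts (adjusted p = 0.00159), and both calls held under every alternative in which the gene was tested. The knockout mean was 0.16 ± 0.04 (adjusted p = 0.0186), a call lost after quantile normalization (adjusted p = 0.0556) or after centring each array on its median (adjusted p = 0.0904).

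Cacna1a, the P/Q-type pore, read 8.55 to 8.88 in wild-type control and 8.96 to 9.03 in mutant control arrays, with no overlap. Its difference of 0.30 ± 0.07 (adjusted p = 0.0347) was lost without wild-type control array 1, 2, mutant control array 1, 2 or 3 (adjusted p between 0.0654 and 0.125), or without both arrays of high Ucp1 (adjusted p = 0.0911) or with only the groups compared in the fit (adjusted p = 0.09). Among knockouts it was 0.17 ± 0.07 (adjusted p = 0.23), not called.

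Of the alpha2delta subunits, Cacna2d1 read 12.08, 12.06 and 11.97 in wild-type control and 11.58, 11.62 and 11.63 in wild-type knockout arrays. Mutant controls read 12.03, 11.83 and 11.85 and mutant knockouts 11.34, 11.41 and 11.61. No array of a knockout group reached its control group in either genotype. The differences were -0.43 ± 0.07 (adjusted p = 0.00136) and -0.45 ± 0.07 (adjusted p = 0.00235), both called under every alternative run. A second probe set of the gene gave -0.28 ± 0.08 (adjusted p = 0.0262) and -0.54 ± 0.08 (adjusted p = 0.00134).

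Cacna2d3 was a dim gene whose arrays fell at 3 levels. It read 8.58, 8.24 and 8.69 in wild-type control and 8.02, 8.11 and 8.08 in wild-type knockout arrays. In mutant control arrays it read 7.66, 7.52 and 7.60 and in mutant knockout arrays 7.63, 7.61 and 7.60. Wild-type controls lay highest, wild-type knockouts next, and all 6 mutant arrays lowest, without overlap between these 3 levels. The Fbn1 mutant was lower by -0.91 ± 0.09 among controls, a change of -46.8% (adjusted p = 0.000253), and by -0.46 ± 0.09 among knockouts (adjusted p = 0.0107). The second of these was lost without both arrays of high Ucp1 (adjusted p = 0.0515). Knockout lowered it by -0.44 ± 0.09 in the wild-type (adjusted p = 0.00515), with 0.02 ± 0.09 in the mutant (adjusted p = 0.914). The 2 knockout effects differed by 0.45 ± 0.13 (adjusted p = 0.108), which did not pass; without wild-type control 2 the difference was 0.58 (adjusted p = 0.00865) and passed. With all arrays no gene of the set passed that limma test, and 13 of 50 had an unadjusted p under 0.05, as had 2463 of all 14944 genes. Cacna2d2 and Cacna2d4 were called in no comparison.

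Beta subunits sit on the pore and set its gating. Cacnb4 read 8.26, 8.28 and 8.30 in wild-type control and 7.88, 7.88 and 7.89 in wild-type knockout arrays. The difference was -0.40 ± 0.09 (adjusted p = 0.00692), held under every alternative in which the gene was tested, and the groups did not overlap. In the mutant it read 7.74, 7.94 and 7.96 in controls and 7.55, 7.77 and 7.95 in knockouts, which overlapped (-0.12 ± 0.09, adjusted p = 0.361). The mutant controls were lower than wild-type controls by -0.40 ± 0.09 (adjusted p = 0.0186), a call lost without wild-type control array 2, 3 or mutant control array 1 (adjusted p = 0.0532, 0.0534 and 0.0638, in that order). Cacnb1 and Cacnb2 were called nowhere.

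In the gamma subunit family Cacng4, which also serves as an accessory of glutamate receptors, read 9.07, 9.18 and 9.05 in wild-type control and 9.49, 9.57 and 9.49 in wild-type knockout arrays. Mutant controls read 9.50, 9.29 and 9.42 and mutant knockouts 10.10, 9.84 and 9.91. Every knockout array exceeded every control array of its genotype. The differences were 0.42 ± 0.07 (adjusted p = 0.00181) and 0.55 ± 0.07 (adjusted p = 0.000693), called under every alternative run. The Fbn1 mutant was also higher, by 0.31 ± 0.07 among controls (adjusted p = 0.0288) and by 0.43 ± 0.07 among knockouts (adjusted p = 0.00467). The first of these was lost without wild-type control array 1, 3, mutant control array 1 or 3 (adjusted p = 0.0728, 0.0867, 0.0931 and 0.0644, in that order), or with array weights (adjusted p = 0.0593) or with only the groups compared in the fit (adjusted p = 0.0537). Cacng7 was lower in the wild-type knockout by -0.18 ± 0.06 (adjusted p = 0.0345), with arrays at 11.69 to 11.82 in controls and 11.53 to 11.57 in knockouts. Its call was lost without wild-type control array 1, 3, wild-type knockout array 1, 2 or 3 (adjusted p between 0.0516 and 0.12), or without both arrays of high Ucp1 (adjusted p = 0.0577) or with only the groups compared in the fit (adjusted p = 0.0544). In the mutant the Cacng7 means were 11.63 in controls and 11.71 in knockouts, the other direction, with overlap and no call. Cacng5, dim, was higher in the mutant knockout by 0.21 ± 0.05 (adjusted p = 0.0201), and this did not hold without mutant control array 2, mutant knockout array 2 or 3 (adjusted p = 0.0732, 0.0641 and 0.0533, in that order), or without both arrays of high Ucp1 (adjusted p = 0.0579).

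**Figure D2:**
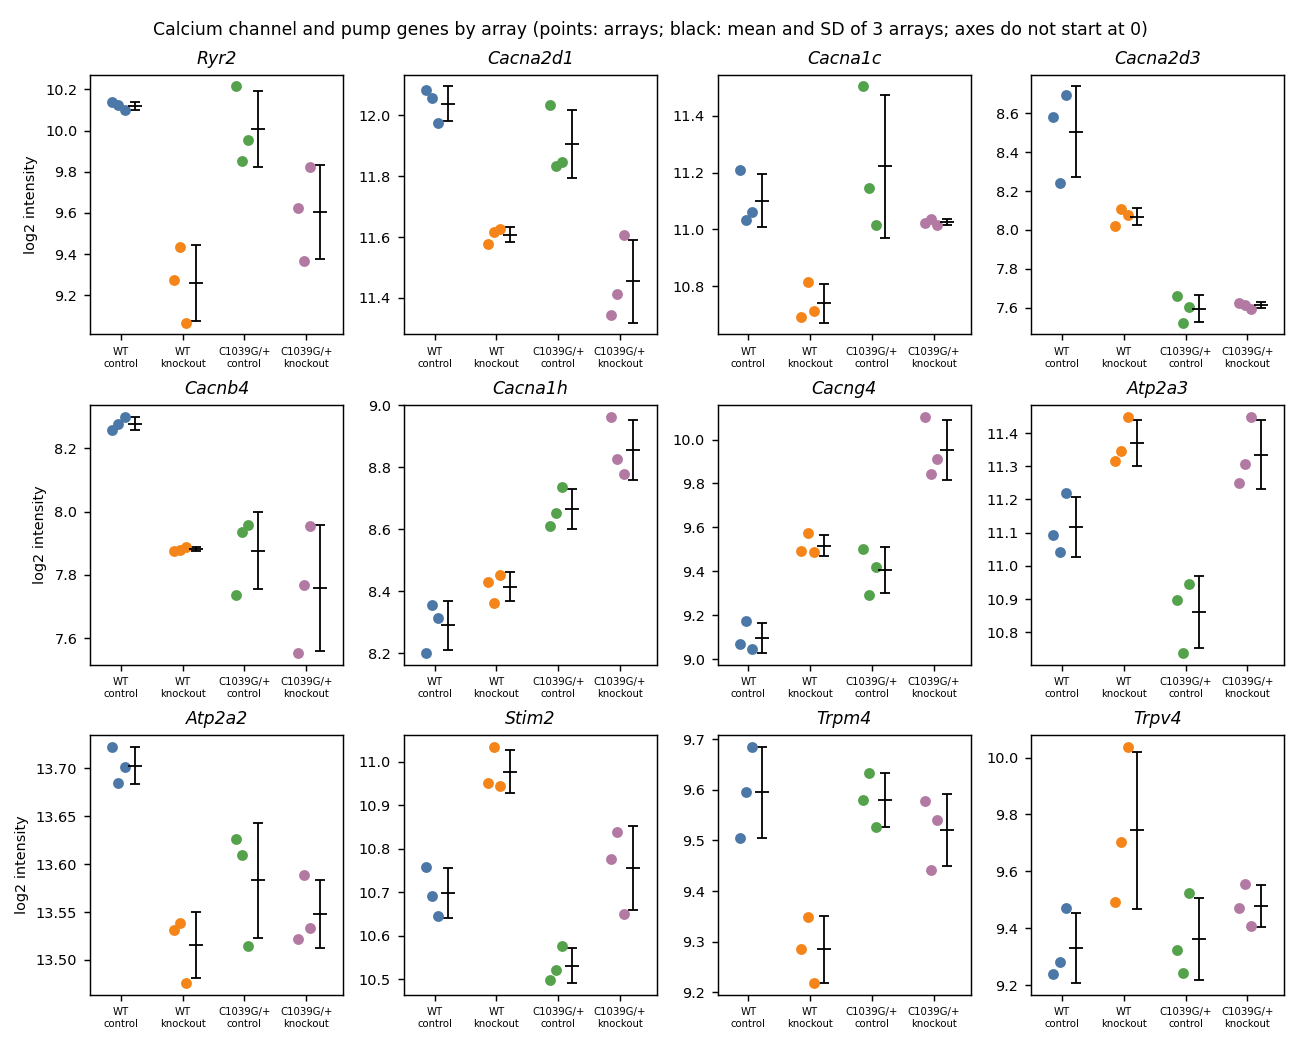
Log2 intensity on each of the 12 arrays for 12 calcium genes, in 4 groups of 3 arrays (points), with the mean and SD of each group in black and axes that do not start at 0. Ryr2 and Cacna2d1 fall and Cacng4 and Atp2a3 rise from control to knockout in both genotypes, Cacna1h is higher in the mutant arrays, and Cacna2d3 is lowest in all 6 mutant arrays.

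Of the SERCA pumps that refill the store, Atp2a2, the SERCA of heart and smooth muscle, was lower in the wild-type knockout. It read 13.72, 13.68 and 13.70 in controls and 13.53, 13.54 and 13.48 in knockouts, without overlap, a difference of -0.19 ± 0.05 (adjusted p = 0.0144). That call was lost without wild-type knockout array 3 (adjusted p = 0.0633). The mutant difference was -0.03 ± 0.05 and did not pass (adjusted p = 0.633).

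Atp2a3 (SERCA3), known from blood, endothelial and other cells, rose. It read 11.09, 11.04 and 11.22 in wild-type control and 11.32, 11.35 and 11.45 in wild-type knockout arrays. In the mutant it read 10.90, 10.74 and 10.95 in controls and 11.25, 11.31 and 11.45 in knockouts. The groups did not overlap in either genotype, and the differences were 0.25 ± 0.07 (adjusted p = 0.0291) and 0.48 ± 0.07 (adjusted p = 0.0018). The wild-type call was lost without wild-type control array 1, 2, wild-type knockout array 2 or 3 (adjusted p = 0.0769, 0.108, 0.0526 and 0.115, in that order); the mutant call held under every alternative. As a dim member, Atp2a1 was higher in the mutant knockout by 0.20 ± 0.06 (adjusted p = 0.0342), a call lost without mutant control array 1, 2, mutant knockout array 1, 2 or 3 (adjusted p between 0.0625 and 0.126), or after quantile normalization (adjusted p = 0.0802), after centring each array on its median (adjusted p = 0.0742) or without both arrays of high Ucp1 (adjusted p = 0.0904).

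Pumps of the plasma membrane and the Golgi gave few calls. Atp2b2 read 9.34 to 9.53 in wild-type control and 9.00 to 9.09 in wild-type knockout arrays and was lower by -0.38 ± 0.11 (adjusted p = 0.0283), a call lost without wild-type control array 1, 3, wild-type knockout array 1 or 3 (adjusted p = 0.0555, 0.0928, 0.0871 and 0.0804, in that order). In the mutant Atp2b2 differed by -0.25 and was not called. As the mean of both genotypes it was lower by -0.31, a call kept under every alternative in which it was tested. Atp2b1 and Atp2b3 were called nowhere. Atp2c1, the main Golgi pump, was lower in mutant than wild-type controls by -0.18 ± 0.05 (adjusted p = 0.0412), a call lost without wild-type control array 1, 2, 3, wild-type knockout array 1, 3, mutant control array 1, 2, 3 or mutant knockout array 1 (adjusted p between 0.0555 and 0.118), or without the filter on dim genes (adjusted p = 0.056), after centring each array on its median (adjusted p = 0.0518), without both arrays of high Ucp1 (adjusted p = 0.0783) or with only the groups compared in the fit (adjusted p = 0.0988). Atp2c2, just above the filter, was higher in the mutant knockout by 0.21 ± 0.06 (adjusted p = 0.0327). It lost its call without mutant control array 1, 2, 3, mutant knockout array 1, 2 or 3 (adjusted p between 0.0547 and 0.0927), or without both arrays of high Ucp1 (adjusted p = 0.0944) or with only the groups compared in the fit (adjusted p = 0.0545). Its control means, 7.29 in the wild-type and 7.26 in the mutant, lay under the filter of 7.31. It passed that filter only through its knockout arrays, with means of 7.36 and 7.47. Its calls in the mutant and in the mean of both genotypes are therefore no support for a rise, although the counts include them.

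Of the store sensors, Stim2 read 10.76, 10.69 and 10.64 in wild-type control and 10.95, 11.03 and 10.95 in wild-type knockout arrays, higher in every knockout array by 0.28 ± 0.06 (adjusted p = 0.00497) and called under every alternative run. In the mutant it read 10.50, 10.52 and 10.58 in controls and 10.78, 10.84 and 10.65 in knockouts, higher by 0.22 ± 0.06 (adjusted p = 0.0246) without overlap. The mutant call was lost without mutant control array 1, 2, mutant knockout array 1 or 2 (adjusted p = 0.0748, 0.0781, 0.0726 and 0.0946, in that order), or after centring each array on its median (adjusted p = 0.0985), without both arrays of high Ucp1 (adjusted p = 0.0814) or with only the groups compared in the fit (adjusted p = 0.0621). Mutant knockouts were lower than wild-type knockouts by -0.22 ± 0.06 (adjusted p = 0.0392), which was lost without wild-type control array 2, wild-type knockout array 1, 2, 3, mutant control array 2, mutant knockout array 1 or 3 (adjusted p between 0.0557 and 0.12), or without the filter on dim genes (adjusted p = 0.0524), without both arrays of high Ucp1 (adjusted p = 0.112) or with only the groups compared in the fit (adjusted p = 0.085).

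Stim1, the sensor that gates Orai1 most directly, was called in the mean of both genotypes alone, at -0.13 ± 0.04 (adjusted p = 0.0218), a call lost without wild-type control array 2, mutant knockout array 1 or 2 (adjusted p = 0.0518, 0.0561 and 0.0516, in that order), or without both arrays of high Ucp1 (adjusted p = 0.0843). The wild-type knockout difference was -0.16 ± 0.05 (adjusted p = 0.0513). Orai2 read 8.93 to 9.00 in wild-type control and 9.14 to 9.33 in wild-type knockout arrays, higher by 0.24 ± 0.06 (adjusted p = 0.0187), and its second probe set gave 0.23 ± 0.06 (adjusted p = 0.0129). The first call was lost without wild-type control array 1 or wild-type knockout array 3 (adjusted p = 0.0588 and 0.0838, in that order). In the mutant the Orai2 means were 9.04 in controls and 9.02 in knockouts, with no call. The second probe set gave -0.02 ± 0.06 there (adjusted p = 0.871). Orai1 and Orai3 were called in no comparison.

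The TRP channels held 19 of the 64 genes besides Trpc4ap and Trpc5os, and 10 of those 19 were tested. Trpm4, a calcium-activated cation channel of arterial muscle, read 9.51, 9.60 and 9.69 in wild-type control and 9.29, 9.35 and 9.22 in wild-type knockout arrays. It was lower by -0.31 ± 0.06 (adjusted p = 0.00357), without overlap and under every alternative run. In the mutant it read 9.53 to 9.63 in controls and 9.44 to 9.58 in knockouts, which overlapped (-0.06 ± 0.06, adjusted p = 0.513). Mutant knockouts lay above wild-type knockouts by 0.24 ± 0.06 (adjusted p = 0.0388), a call lost without wild-type control array 2, wild-type knockout array 1, 3, mutant control array 2, mutant knockout array 1 or 3 (adjusted p between 0.0504 and 0.15), or without the filter on dim genes (adjusted p = 0.0508), after centring each array on its median (adjusted p = 0.0683), without both arrays of high Ucp1 (adjusted p = 0.165) or with only the groups compared in the fit (adjusted p = 0.0615).

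Trpm7, a channel joined to a kinase, read 10.96, 10.98 and 10.87 in mutant control and 10.62, 10.56 and 10.79 in mutant knockout arrays. It was lower by -0.28 ± 0.07 (adjusted p = 0.0195), with no overlap, and was lost without mutant control array 1, 2, mutant knockout array 1 or 2 (adjusted p = 0.0587, 0.0744, 0.0627 and 0.076, in that order), or without both arrays of high Ucp1 (adjusted p = 0.0633). Trpv4, known in endothelium and smooth muscle, read 9.24, 9.28 and 9.47 in wild-type control and 9.49, 9.70 and 10.04 in wild-type knockout arrays, without overlap. Its difference of 0.41 ± 0.12 (adjusted p = 0.0281) was lost without wild-type control array 1, 2, wild-type knockout array 2 or 3 (adjusted p = 0.0898, 0.0865, 0.052 and 0.104, in that order), or with only the groups compared in the fit (adjusted p = 0.0556). In the mutant Trpv4 read 9.32, 9.24 and 9.52 in controls and 9.47, 9.56 and 9.41 in knockouts, which overlapped, and was not called. Endothelial markers were higher in 6 of 16 in the wild-type and in 7 of 16 in the mutant. Other marker lists also rose, as given above, and the part of any of these cells in Trpv4 was not tested.

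Trpv5 was a dim member called in both genotypes. It read 7.33, 7.36 and 7.34 in wild-type control and 7.52, 7.50 and 7.58 in wild-type knockout arrays. Mutant controls read 7.40, 7.30 and 7.23 and mutant knockouts 7.70, 7.55 and 7.74, with no overlap in either genotype. The differences were 0.19 ± 0.06 (adjusted p = 0.0422) and 0.35 ± 0.06 (adjusted p = 0.0029). The wild-type call was lost without wild-type control array 1, 2, 3, wild-type knockout array 1, 2, 3, mutant control array 2 or mutant knockout array 1 (adjusted p between 0.0542 and 0.141), or without the filter on dim genes (adjusted p = 0.0549), with an offset before log2 (adjusted p = 0.0522), with a variance trend (adjusted p = 0.0513) or without both arrays of high Ucp1 (adjusted p = 0.0547). The other TRP genes tested were called in no comparison.

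Between Fbn1 genotypes, 6 of the 50 genes were called among controls, 3 in each direction, against 6.49% of all genes, 3.17% higher and 3.33% lower. Among knockouts 5 were called, 3 higher and 2 lower, against 5.96% of all genes, 2.8% higher and 3.16% lower. The medians of the 50 genes were -0.06 and 0.03, and of all genes -0.02 and 0.01. Cacna1h, Cacna2d3 and Cacng4 were called in both. Among controls the count was 3 without any 1 of the wild-type control arrays and 2 without mutant control 1. Among knockouts it was 3 when mutant knockout 1 or 3, mutant control 2, wild-type knockout 1 or 3, or wild-type control 2 was left out, and 2 without both arrays of high Ucp1. The Fbn1 comparisons share no arrays with each other, and each shares arrays with both knockout comparisons. Among controls 12 of 17 cell division genes, 4 of 13 fibroblast, 2 of 18 macrophage and 1 of 22 cardiac markers were higher, and 2 of 17 smooth muscle markers were lower. Among knockouts 9 of 18 macrophage, 2 of 13 fibroblast and 2 of 11 nerve and Schwann markers were lower. Cardiac markers gave 3 higher and 2 lower of 22 there, and fat markers 1 in each direction of 13. Higher there were 2 of 12 skeletal muscle markers and 1 of 19 immediate early genes. The other lists had no call, and the part of these cells was not tested. For the difference of the knockout effects 0 of the 50 genes were called, against 1.48% of all genes.

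**Figure D3:**
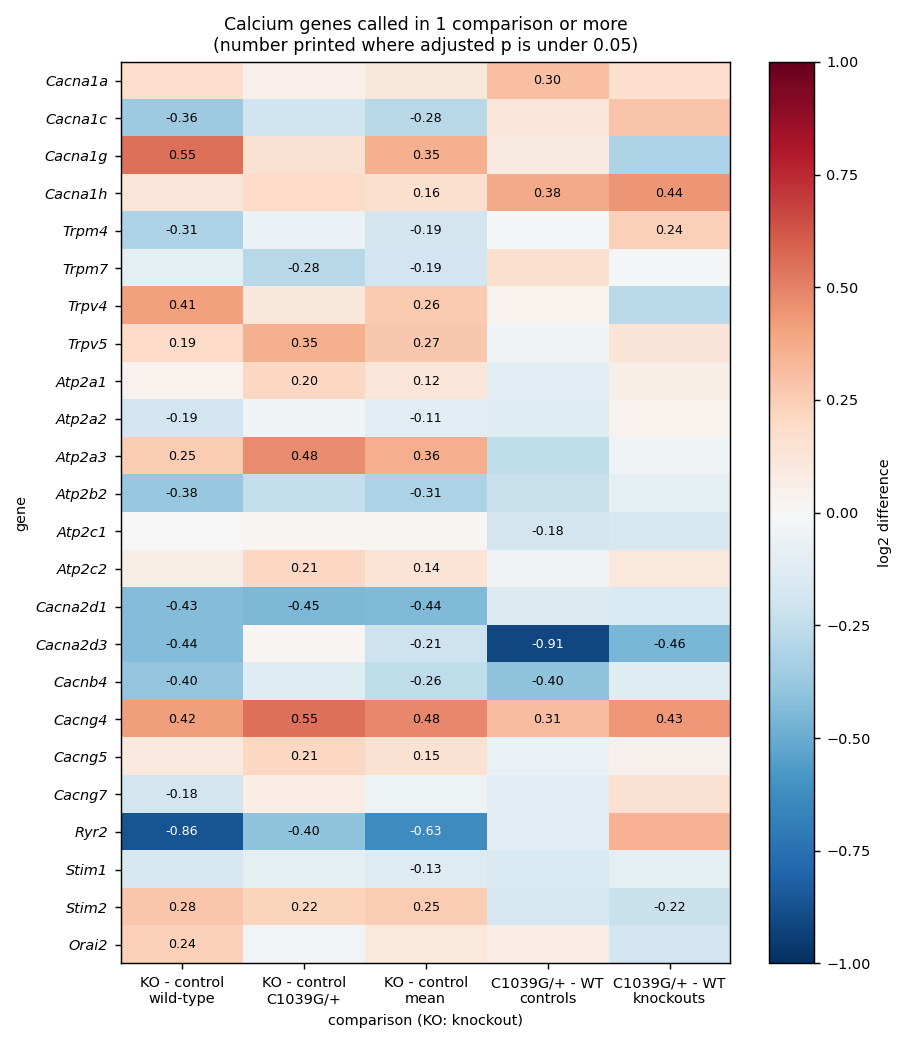
Log2 difference of the 24 calcium genes called in at least 1 comparison (rows) in 5 comparisons (columns), with the value printed where the adjusted p was under 0.05. Cacna2d3 in the Fbn1 comparison of controls and Ryr2 in the wild-type knockout hold the lowest values printed, and Cacng4 is the gene printed in all 5 columns.

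Of the 50 genes tested, 26 were called in no comparison. These were the pores Cacna1b, Cacna1d, Cacna1e, Cacna1i and Cacna1s, the subunits Cacna2d2, Cacna2d4, Cacnb1, Cacnb2, Cacng1, Cacng2 and Cacng8, and the release channels Ryr1, Itpr2 and Itpr3. The rest were Orai1, Orai3, Atp2b1, Atp2b3, Trpc1, Trpc4ap, Trpm2, Trpm3, Trpv2, Trpv3 and Trpv6. Their knockout differences lay between -0.16 and 0.18 in the wild-type and between -0.09 and 0.20 in the mutant, and their Fbn1 differences between -0.17 and 0.12 among controls and between -0.15 and 0.30 among knockouts.

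Partners of these channels came from 7 lists of named genes. The share of a list called lay between 9.09% and 31.2% in the wild-type knockout, where 18.8% of all genes were called, and between 6.25% and 24% in the mutant, where 13.4% were. The exchanger, store-operated entry and calmodulin lists lay under that share in the wild-type, and the calmodulin list and the list of calcium-gated channels in the mutant. In the list of store release partners 25 were tested: 3 were higher and 4 lower in the wild-type knockout, and 4 higher and 2 lower in the mutant. Casq1, the calsequestrin that buffers calcium in the store and also one of the skeletal muscle markers, was lower by -0.75 ± 0.12 (adjusted p = 0.000909) and -0.73 ± 0.12 (adjusted p = 0.00247). Jph2, a junctophilin that holds the store to the surface membrane, was lower in the wild-type by -0.54 ± 0.08 (adjusted p = 0.000891). In the mutant its means were 11.73 in controls and 11.63 in knockouts, with overlap and no call. Mutant knockouts lay above wild-type knockouts by 0.35 ± 0.08 (adjusted p = 0.0286). Bok, a BCL2 family protein that binds IP3 receptors, was higher by 0.40 ± 0.07 (adjusted p = 0.00114) and 0.44 ± 0.07 (adjusted p = 0.00133). Hrc, also one of the cardiac markers, was lower in the wild-type by -0.39 ± 0.06 (adjusted p = 0.000814). Its mutant difference was -0.03 and was not called. Pln, phospholamban, the brake on SERCA and also one of the cardiac markers, was higher by 0.87 ± 0.18 in the wild-type (adjusted p = 0.00476) and 0.65 ± 0.18 in the mutant (adjusted p = 0.0316), the second lost without mutant control array 1, 3, mutant knockout array 1 or 3 (adjusted p = 0.0972, 0.08, 0.103 and 0.0641, in that order), or with a variance trend (adjusted p = 0.0631) or without both arrays of high Ucp1 (adjusted p = 0.193).

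The list of channel regulators had 10 genes tested, with 0 higher and 3 lower in the wild-type and 1 in each direction in the mutant. Nalcn, a sodium leak channel, was lower by -0.57 ± 0.11 (adjusted p = 0.00318) and -0.56 ± 0.11 (adjusted p = 0.00674). Of 11 store-operated entry partners 1 and 2 were lower and 0 higher. Of 18 exchangers and mitochondrial uptake genes 2 were higher and 1 lower in the wild-type, and 3 higher and 0 lower in the mutant. Slc24a4, a sodium, potassium and calcium exchanger, was higher in the mutant knockout by 0.74 ± 0.14 (adjusted p = 0.00683). In the wild-type its means were 10.28 in controls and 10.58 in knockouts, with overlap and no call. As the mean of both genotypes it was higher by 0.52 ± 0.10 (adjusted p = 0.00261).

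Of 19 phospholipase C and IP3 metabolism genes 3 were higher and 1 lower in the wild-type, and 1 higher and 2 lower in the mutant. Of 24 calmodulin, kinase and calcineurin genes 3 were higher and 1 lower, and then 2 and 1. Camk4, a calcium and calmodulin dependent kinase, was higher by 0.68 ± 0.11 (adjusted p = 0.00118) and 0.53 ± 0.11 (adjusted p = 0.0104). Of 16 calcium-gated channels and P2X receptors 3 were higher and 2 lower in the wild-type and 1 higher and 0 lower in the mutant. P2rx1, an ATP-gated cation channel of arterial muscle, was higher by 0.85 ± 0.13 (adjusted p = 0.000586) and 1.05 ± 0.13 (adjusted p = 0.000332), and higher in the Fbn1 mutant by 1.05 ± 0.13 among controls (adjusted p = 0.000814) and 1.25 ± 0.13 among knockouts (adjusted p = 0.000194). Kcnmb1, the beta subunit of the BK potassium channel that calcium sparks open, was lower in the wild-type by -0.20 ± 0.04 (adjusted p = 0.00618). It read 13.61 to 13.66 in mutant control and 13.50 to 13.57 in mutant knockout arrays and was not called there. As the mean of both genotypes it was lower by -0.15 ± 0.03 (adjusted p = 0.0032).

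**Figure D4:**
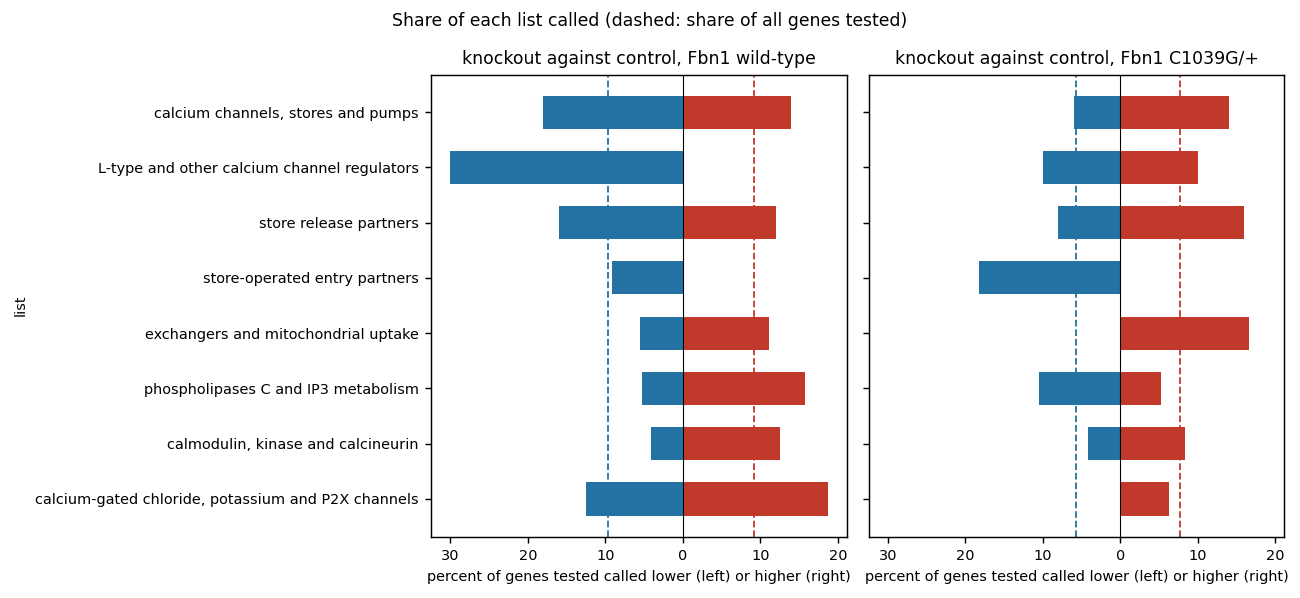
Percent of the genes tested in the calcium set and in 7 partner lists that were called lower (left, blue) or higher (right, red) in the knockout, in wild-type (left panel) and Fbn1C1039G/+ aorta (right panel), with the share of all 14944 genes as dashed lines. In the wild-type the calcium set has 18% lower and 14% higher, and in the mutant 6% lower and 14% higher.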

How the data were processed

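RNA labelled with biotin was hybridised to 12 arrays, and the authors normalized the signals with RMA in Partek 6.4, per the submitters' processing notes. The deposited table gives linear intensity for 35556 probe sets, and log2 was taken first. The array's annotation names 23410 probe sets. A gene was read by its single-symbol probe set of highest mean, and genes under the 25th percentile of those probe sets (log2 7.31) were left out. That percentile was first taken over all annotated probe sets (log2 7.25, 15158 genes, 51 of the calcium genes). It was changed after its calls had been seen, to match an earlier description of these data, and both are reported.

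The 4 group means were fitted over the 12 arrays in limma 3.58.1 under R 4.3.3 (lmFit and eBayes without trend, 8 residual degrees of freedom), with two-sided tests and Benjamini-Hochberg adjustment. The procedure was tested on simulated data. The named genes are all members called in a comparison, and a part of the partners. The partners were listed as up to 4 of smallest p per list and comparison, and not all of those are given. The members, 7 partner lists and 11 marker lists were chosen with earlier results of these data known. Precision is limited by 3 arrays a group. Alternatives covered the filter, scaling, probe sets, offset, variance model, weights, groups fitted, block and single arrays, and 2 were added after seeing the data.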

Additional observations from a re-analysis of the deposited data

Results flagged for a closer look

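No gene of the calcium set itself met a rule for closer attention, and of the genes named from the partner lists a pair did, because the knockout effect differed between the Fbn1 genotypes. Micu2, which gates the mitochondrial calcium uniporter, was higher in the wild-type knockout by 0.44 ± 0.06 (adjusted p = 0.000293) and by 0.01 ± 0.06 in the mutant, and the effects differed by -0.43 ± 0.08 (adjusted p = 0.0250, limma). That call was lost without wild-type knockout 1 or 3, mutant control 1 or 2, or mutant knockout 2 or 3 (adjusted p between 0.0563 and 0.0750). Micu2 was also higher in mutant than wild-type controls by 0.38 ± 0.06 (adjusted p = 0.00355, limma). Its mean was 9.96 in wild-type control, 10.40 in wild-type knockout, 10.34 in mutant control and 10.35 in mutant knockout arrays, so the wild-type controls alone lay low. P2rx4, an ATP-gated channel, was 0.22 ± 0.07 in the wild-type and -0.22 ± 0.07 in the mutant, and the effects differed by -0.44 ± 0.10 (adjusted p = 0.0488). Its call was lost without any 1 of 10 arrays, without the filter and after centring (adjusted p between 0.0539 and 0.114).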

How the results depend on the processing

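Over all named genes and comparisons no setting reversed the sign of a call. Leaving out 1 array at a time gave 7 to 18 calls in the wild-type knockout, 4 to 10 in the mutant knockout, 15 to 23 in the mean of both, 2 to 7 and 3 to 7 between Fbn1 genotypes among controls and knockouts, and 0 to 1 in the difference of effects (1 without wild-type control 2). In the mutant knockout the count was 6 with the filter at the median and 4 without both arrays of high Ucp1, and in the mean of both it was 13 with that filter. Among controls it was 3 with only the groups compared in the fit. Among knockouts it was 3 without the filter, 8 with array weights and 2 without both arrays of high Ucp1, and after centring each array on its median 2 genes were higher and 3 lower. With the percentile of the filter taken over all annotated probe sets the counts were 16, 11, 20, 6, 5 and 0, where Trpm1 was the gene added in the mutant knockout. The number in the titles as a replicate block gave 14, 9, 20, 6, 4 and 0. The settings listed above for lost calls leave that block out, so a call may also be lost with it. Deviations of arrays of the same number correlated between -0.22 and 0.24 and not all above 0.1, so the numbers were not taken to pair the arrays. Of the calls, 7 of 16, 4 of 10, 12 of 20, 2 of 6 and 2 of 5 were kept under every alternative in which the gene was tested. The 12 in the mean of both were Atp2a3, Atp2b2, Cacna1c, Cacna2d1, Cacnb4, Cacng4, Cacng5, Ryr2, Stim2, Trpm4, Trpm7 and Trpv5. The intensities give no detection call, so signal over background limits what can be said of the dim genes.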
